A study of Mus musculus with 12 samples.

Results

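The expression of 10 genes of bone morphogenetic protein (BMP) signalling was compared in inguinal white adipose tissue (iWAT), the subcutaneous fat of the groin. These were the ligand genes Bmp2, Bmp4, Bmp6 and Bmp7, the receptor genes Bmpr1a and Bmpr2, the secreted antagonist gene Grem1, the target genes Id1 and Id3, and Bmp1. They were chosen by gene symbol from the 54134 genes of the deposited count table, where each symbol had 1 gene identifier, and all 10 were among the 15585 genes with enough reads to be tested. Bmp1 carries a BMP name but codes for a tolloid-type metalloproteinase, so it is given apart from the ligands. Grem1 was the only antagonist among the 10 genes.

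The RNA came from 12 male C57BL/6J mice, and 1 library was sequenced per mouse. At 8 weeks of age, 6 mice received an adeno-associated virus (AAV) encoding GFP by tail vein and 6 received the same amount of an AAV encoding mouse Notum. Both vectors used the human thyroxine binding globulin promoter, which is active in liver, so overexpression was directed at the liver. Notum reads in the fat were not examined here. NOTUM is a secreted carboxylesterase that inactivates Wnt proteins. All mice ate chow for 4 weeks and were fasted for 4 h before the iWAT was taken. AAV-GFP mice were the sole controls, and a group without virus was not part of these samples. The comparison asks how the genes of the BMP pathway differed in the fat of mice whose livers overexpressed Notum.

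BMP ligands are secreted dimers of the TGF-beta superfamily that bring together type I receptors, such as the product of Bmpr1a, and type II receptors, such as that of Bmpr2. The active receptors phosphorylate Smad1, Smad5 and Smad9, which enter the nucleus with Smad4 and raise transcription of the Id genes. Secreted antagonists such as gremlin 1 bind the ligands and keep them from the receptors. In adipose tissue, BMP4 is known for committing progenitor cells to the adipocyte lineage and BMP7 for promoting brown adipocyte differentiation.

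The lowest and the highest lymphoid levels among the libraries were far apart, and several of the 10 genes moved with them. The lymphoid score, the mean log2 CPM (the reads of a gene scaled to the library size) of 15 genes of B and T cells, was -0.61 to 6.89 in AAV-GFP mice and 5.24 to 7.29 in AAV-Notum mice. Mice AAV-GFP-2014, AAV-GFP-2011 and AAV-GFP-2012 had the lowest scores, -0.61, 0.12 and 3.91. The summed CPM of the 15 genes was 9.0 to 1970 in AAV-GFP mice and 637.1 to 2784 in AAV-Notum mice, and none of the 15 was at 0 in every mouse. Of 6 lymph node stroma genes, 5 were tested and Ccl21a was listed at 0 in every mouse. Adipocyte genes were high in every mouse, with a summed CPM of 10 genes between 33990 and 77350. The summed CPM of 10 hepatocyte genes was 302.5 to 5897 in AAV-GFP mice and 175.8 to 984.5 in AAV-Notum mice. Mice AAV-GFP-2013 and AAV-GFP-2014, at 5897 and 1848, were the highest. That of 9 skeletal muscle genes was 9.607 to 836.2 in AAV-GFP mice and 9.561 to 3919 in AAV-Notum mice. The part of either in the levels of the 10 BMP genes was not tested. The score of 10 endothelial genes was 5.95 to 6.76 in AAV-GFP mice and 5.77 to 6.38 in AAV-Notum mice. Total reads per mouse were 14711113 to 21618860. RNA integrity numbers lay between 5.7 and 7.6 for AAV-GFP and between 6.9 and 7.4 for AAV-Notum mice. RNA of mouse AAV-GFP-2012 was isolated 22 days after collection and that of every other mouse 2 days after it.

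None of the 10 genes differed between the groups at an adjusted p under 0.05 in edgeR's quasi-likelihood test (adjusted p from 0.174 to 0.717, Benjamini-Hochberg over 15585 genes). At that threshold 0.0513% of all genes tested were lower and 0% were higher in AAV-Notum mice. At an unadjusted p under 0.05, 4 of the 10 genes were lower in AAV-Notum mice, Bmp1, Bmp2, Bmp4 and Bmp6, against 9.54% of all genes tested. At the same unadjusted threshold 0 of the 10 genes were higher, against 4.64% of all genes. With DESeq2, which called 2.17% of the genes it adjusted lower and 0.481% higher, Bmp1 alone passed an adjusted p of 0.05 (0.0480, or 0.0919 without independent filtering). The log2 fold change of AAV-Notum over AAV-GFP was below 0 for 8 of the 10 genes, as for 48.8% of all genes, with a median of -0.27. The median over all genes was 0.0077. The groups overlapped for every one of the 10 genes, whereas 0.693% of all genes were lower and 0.398% higher without overlap. In a bulk sample such as this, fewer cells of a type and less RNA per cell cannot be told apart.

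**Figure D1:**
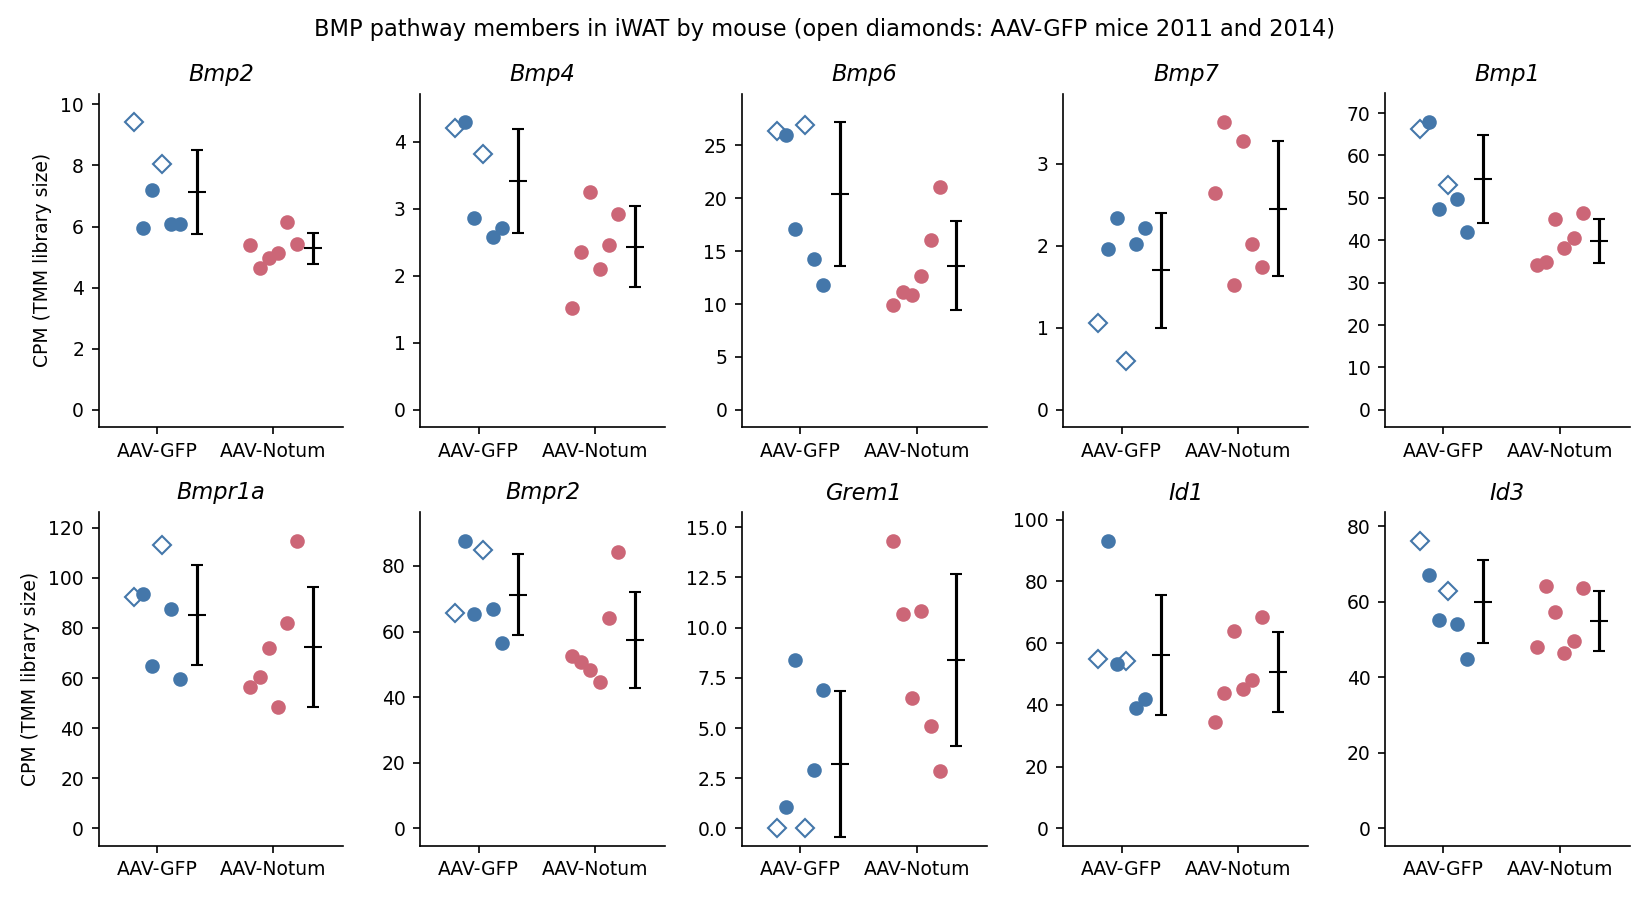
CPM of the 10 genes in each of 6 AAV-GFP mice (blue) and 6 AAV-Notum mice (red), with the group mean ± SD in black and mice AAV-GFP-2014 and AAV-GFP-2011 as open diamonds. For Bmp1, Bmp2 and Bmp4, each of the 6 AAV-Notum mice lay under the mean of the AAV-GFP mice, and Grem1 was at 0 in both mice drawn as diamonds.

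The levels per kilobase of exon separated the target genes from the ligand genes. In AAV-GFP mice Id1 stood at 48.3 ± 16.8 CPM per kilobase (SD, n = 6) and Id3 at 33.5 ± 6.17 CPM per kilobase (SD, n = 6), and their spreads overlapped. Bmpr1a followed at 13.4 ± 3.14 CPM per kilobase (SD, n = 6), outside the spreads of both neighbours in the order. Next came Bmp1 at 6.13 ± 1.18, Bmp6 at 5.23 ± 1.74 and Bmpr2 at 3.96 ± 0.687 CPM per kilobase (SD, n = 6), where each neighbouring pair overlapped by its spread. Bmp2 at 2.01 ± 0.390 and Bmp4 at 1.52 ± 0.346 CPM per kilobase (SD, n = 6) also overlapped each other. The lowest were Grem1 at 0.773 ± 0.872 and Bmp7 at 0.424 ± 0.175 CPM per kilobase (SD, n = 6), and the spread of Grem1 reached both Bmp4 and Bmp7. In AAV-Notum mice Grem1, at 2.02 ± 1.03 CPM per kilobase (SD, n = 6), stood above Bmp2 at 1.49 ± 0.143 and Bmp4 at 1.082 ± 0.270, with overlapping spreads of Grem1 and each of them, and the other genes kept their order. These lengths count every annotated exon of a gene once, so the levels depend on the annotation.

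Bmp2 (ENSMUSG00000027358, GRCm38 chr2:133552159-133562885, plus strand) codes for a ligand that signals through BMPR1A and BMPR2. Its level ran from 5.96 to 9.42 CPM in AAV-GFP mice with a median of 6.65, and from 4.66 to 6.15 CPM in AAV-Notum mice with a median of 5.27. In 5 of the AAV-Notum mice the level was under that of any AAV-GFP mouse, and mouse AAV-Notum-2041, at 6.15 CPM, was the one that overlapped. The highest levels, 9.42 and 8.05 CPM, were those of AAV-GFP-2011 and then of AAV-GFP-2014. Means were 7.13 ± 1.39 CPM (SD, n = 6) for AAV-GFP and 5.29 ± 0.508 CPM (SD, n = 6) for AAV-Notum, and the log2 fold change was -0.43 with a standard error of 0.14 (edgeR, unadjusted p = 0.00855, adjusted p = 0.214). A two-sided exact permutation test of log2 CPM, which took every one of the 924 ways to assign the mice, gave p = 0.00866, not adjusted for the 10 genes so tested. In fits that left out each mouse in turn, the log2 fold change of Bmp2 stayed between -0.48 and -0.33. It was -0.25 with the lymphoid score as a covariate (edgeR, unadjusted p = 0.0813) and -0.26 without AAV-GFP-2014 and AAV-GFP-2011 (unadjusted p = 0.0711).

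Bmp4 (ENSMUSG00000021835, chr14:46383520-46390669, minus strand) was among the less abundant ligand genes, with 30 to 75 reads per mouse. AAV-GFP mice had 2.58 to 4.29 CPM with a median of 3.34, and AAV-Notum mice had 1.52 to 3.25 CPM with a median of 2.41. The AAV-GFP levels formed a higher trio, 3.81, 4.20 and 4.29 CPM in AAV-GFP-2014, AAV-GFP-2011 and AAV-GFP-2012, and a lower trio between 2.58 and 2.87 CPM. The higher trio was made up of the mice with the lowest lymphoid scores, and the lower trio overlapped the AAV-Notum mice. These 3 mice of the higher trio also had the highest adipocyte scores (11.49 to 11.64 mean log2 CPM) and endothelial scores (6.405 to 6.759) of the AAV-GFP group. The mean was 3.41 ± 0.778 CPM (SD, n = 6) against 2.43 ± 0.607 CPM (SD, n = 6), with each of the 6 AAV-Notum mice under the mean of the controls. The log2 fold change was -0.49 with a standard error of 0.21 (edgeR, unadjusted p = 0.0367, adjusted p = 0.325), and the exact permutation p was 0.0390. The exact permutation p rose to between 0.0563 and 0.0779 when AAV-GFP-2011, AAV-GFP-2012, AAV-GFP-2014, AAV-Notum-2031, AAV-Notum-2032, AAV-Notum-2034 or AAV-Notum-2041 was left out. With the lymphoid score as a covariate the log2 fold change was -0.24 (edgeR, unadjusted p = 0.266), and it was -0.20 with the endothelial score (unadjusted p = 0.270).

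Bmp6 (ENSMUSG00000039004, chr13:38345107-38500302, plus strand), whose product is best known for inducing hepcidin in the control of iron, was the most abundant of the 4 ligand genes. Its level was 11.8 to 26.9 CPM in AAV-GFP mice with a median of 21.6, and 9.96 to 21.1 CPM in AAV-Notum mice with a median of 11.9. As for Bmp4, mice AAV-GFP-2014, AAV-GFP-2011 and AAV-GFP-2012 were the highest, at 26.9, 26.3 and 26.0 CPM, and the other 3 AAV-GFP mice lay between 11.8 and 17.1 CPM. Mouse AAV-Notum-2042, which had the lowest lymphoid score of its group, had the highest Bmp6 level of that group, and its adipocyte, endothelial and skeletal muscle scores (11.56, 6.383 and 8.265 mean log2 CPM) were also the highest of the group. Which of these scores had a part in the Bmp6 levels was not tested. The group means were 20.4 ± 6.78 and 13.6 ± 4.24 CPM (SD, n = 6), and the log2 fold change was -0.58 with a standard error of 0.25 (edgeR, unadjusted p = 0.0377, adjusted p = 0.325). By the exact permutation test p was 0.0693. The log2 fold change was -0.15 with the lymphoid score as a covariate (edgeR, unadjusted p = 0.439), -0.15 with the endothelial score (unadjusted p = 0.372) and -0.088 without mice AAV-GFP-2011, AAV-GFP-2012 and AAV-GFP-2014 (unadjusted p = 0.720). Exons of Bmp6 share 224 bases with Txndc5 on the opposite strand, which had 32351 reads over all mice against 3535 for Bmp6, and the sources used here do not state whether counting used strand.

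Bmp7 (ENSMUSG00000008999, chr2:172868012-172940321, minus strand) was the ligand gene with the fewest reads, 10 to 67 per mouse, and the one ligand gene with a positive log2 fold change. AAV-GFP mice had 0.596 to 2.34 CPM with a median of 2.0, and AAV-Notum mice had 1.53 to 3.51 CPM with a median of 2.34. Mice AAV-GFP-2014 and AAV-GFP-2011, at 0.596 and 1.07 CPM, lay under the lowest AAV-Notum mouse, and the other 4 AAV-GFP mice were within the AAV-Notum range. The means were 1.70 ± 0.704 and 2.46 ± 0.822 CPM (SD, n = 6), and the groups overlapped (edgeR log2 fold change 0.53, standard error 0.33, edgeR adjusted p = 0.448, exact permutation p = 0.136). With the lymphoid score as a covariate the log2 fold change of Bmp7 was 0.043 (edgeR, unadjusted p = 0.857).

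Bmp1 (ENSMUSG00000022098, chr14:70474558-70520234, minus strand) codes for the proteinase that removes the C-terminal propeptide of fibrillar procollagens and that also cleaves the BMP antagonist chordin. It had the smallest edgeR p of the 10 genes. The level was 42.1 to 67.8 CPM in AAV-GFP mice with a median of 51.5, and 34.1 to 46.4 CPM in AAV-Notum mice with a median of 39.3. Mouse AAV-GFP-2022, at 42.1 CPM, was the one AAV-GFP mouse within the AAV-Notum range. The means were 54.4 ± 10.4 and 39.8 ± 5.10 CPM (SD, n = 6), and the log2 fold change was -0.45 with a standard error of 0.13 (edgeR, unadjusted p = 0.00469, adjusted p = 0.174) and an exact permutation p of 0.00866. Each of the 12 fits that left out 1 mouse kept an unadjusted p at or under 0.0125, with log2 fold changes from -0.51 to -0.38. With the lymphoid score as a covariate Bmp1 had a log2 fold change of -0.28 (edgeR, unadjusted p = 0.0401), and it had one of -0.23 without mice AAV-GFP-2011, AAV-GFP-2012 and AAV-GFP-2014 (unadjusted p = 0.0912).

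Neither receptor gene passed an unadjusted p of 0.05 in edgeR with all 12 mice. Bmpr1a (ENSMUSG00000021796, chr14:34410734-34503341, minus strand), coding for the type I receptor ALK3, had 59.4 to 113.1 CPM in AAV-GFP mice with a median of 89.9, and 48.7 to 114.8 CPM in AAV-Notum mice with a median of 66.3. The highest level of all 12 mice was in AAV-Notum-2042, and the log2 fold change was -0.23 with a standard error of 0.22 (edgeR, adjusted p = 0.561, exact permutation p = 0.288). That mouse also had the highest summed CPM of the 10 adipocyte genes, 77350, and of a list of skeletal muscle genes, 3919 against 9.561 to 836.2 in the other 11 mice, and the part of either in the receptor levels was not tested. Without AAV-Notum-2042 the log2 fold change of Bmpr1a was -0.41 (edgeR, unadjusted p = 0.0454), and without AAV-GFP-2014 or AAV-Notum-2034 it was -0.14 in each case. It was 0.056 with the lymphoid score as a covariate (unadjusted p = 0.773) and 0.075 with the endothelial score (unadjusted p = 0.633). Without AAV-GFP-2014, AAV-GFP-2011 and AAV-GFP-2012 it was 0.027 (unadjusted p = 0.918). Exons of Bmpr1a share 290 bases with Gm17110 on the opposite strand, which had 78 reads over all mice. Bmpr2 (ENSMUSG00000067336, chr1:59763400-59879014, plus strand), coding for the type II receptor, had 56.4 to 87.7 CPM in AAV-GFP mice with a median of 66.3, and 44.6 to 84.2 CPM in AAV-Notum mice with a median of 51.5. In 4 AAV-Notum mice the level was under that of any AAV-GFP mouse, while AAV-Notum-2042 was the third highest of all. The log2 fold change of Bmpr2 was -0.31 with a standard error of 0.16 (edgeR, unadjusted p = 0.0803, adjusted p = 0.397, exact permutation p = 0.0801). Without mouse AAV-Notum-2042 it was -0.45 (unadjusted p = 0.00552), and without mouse AAV-GFP-2022 it was -0.37 (unadjusted p = 0.0473). It shrank to -0.16 (unadjusted p = 0.366) with the lymphoid score as a covariate, to -0.081 (unadjusted p = 0.520) with the endothelial score and to -0.14 (unadjusted p = 0.466) without AAV-GFP-2014, AAV-GFP-2011 and AAV-GFP-2012.

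Grem1 (ENSMUSG00000074934, chr2:113746164-113758646, minus strand), which codes for gremlin 1, an antagonist that binds BMP2, BMP4 and BMP7, varied more between mice than the other 9 genes, with a coefficient of variation of 113% in AAV-GFP and 51.0% in AAV-Notum mice. There were 0 Grem1 reads in AAV-GFP-2011 and in AAV-GFP-2014, which allows up to 3 reads, or 0.168 and 0.179 CPM, by counting error alone. The other AAV-GFP mice had 18 reads (1.07 CPM, AAV-GFP-2012), 63 reads (2.91 CPM, AAV-GFP-2021), 112 reads (6.90 CPM, AAV-GFP-2022) and 143 reads (8.37 CPM, AAV-GFP-2013). The AAV-Notum mice had 44 to 282 reads, or 2.85 to 14.3 CPM with a median of 8.59. Of the AAV-Notum mice, 3 were above every AAV-GFP mouse and 3 lay within the AAV-GFP range. The means were 3.21 ± 3.62 and 8.38 ± 4.28 CPM (SD, n = 6), or 4.81 ± 3.40 CPM (SD, n = 4) in the AAV-GFP mice that had Grem1 reads.

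The test of Grem1 depended on the scale. edgeR gave a log2 fold change of 1.39 with a standard error of 0.93 (unadjusted p = 0.163, adjusted p = 0.471). It was 3.35 with limma-voom (unadjusted p = 0.0161) and 3.03 with the authors' normalized values in limma (unadjusted p = 0.0324). The exact permutation test on log2 CPM, where both mice without reads weigh more and the difference of means was 2.66, gave p = 0.0498, and leaving out 1 mouse raised it to between 0.0520 and 0.0996 for 9 of the 12 mice. It stayed under 0.05 without mouse AAV-GFP-2013, AAV-GFP-2022 or AAV-Notum-2042. Grem1 and the lymphoid score moved together: the 3 AAV-GFP mice with the lowest scores had the lowest Grem1 levels of all 12 mice, and mouse AAV-Notum-2042, the lowest of its group in the score, was the lowest of its group in Grem1. With the lymphoid score as a covariate the log2 fold change of Grem1 was 0.32 (edgeR, unadjusted p = 0.273), and without AAV-GFP-2014 and AAV-GFP-2011 it was 0.80 (unadjusted p = 0.185). Without AAV-GFP-2012 as well it was 0.47 (unadjusted p = 0.360), and with the endothelial score it was 0.64 (unadjusted p = 0.384). The lymph node stroma score of those 2 mice was also low, at -1.53 and -1.18 mean log2 CPM, against 1.11 to 3.42 in the other 10 mice.

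**Figure D2:**
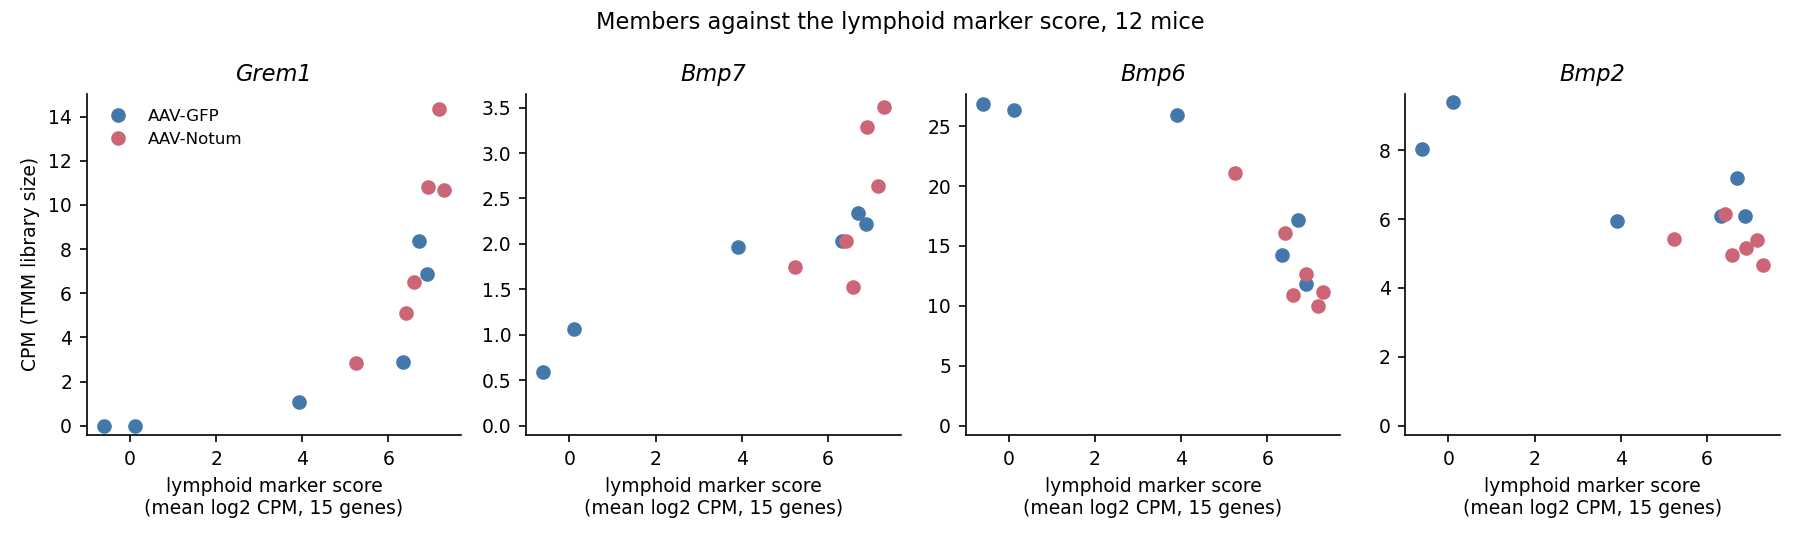
CPM of Grem1, Bmp7, Bmp6 and Bmp2 (vertical axes) against the lymphoid marker score (horizontal axes, mean log2 CPM of 15 genes) in 12 mice. The AAV-GFP mice at scores of -0.61 and 0.12 had no Grem1 reads and the highest Bmp2 levels, and the 3 AAV-GFP mice with the lowest scores had Bmp6 levels between 26.0 and 26.9 CPM.

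For both target genes the difference between AAV-GFP and AAV-Notum mice was smaller than the spread within them. Id1 (ENSMUSG00000042745, chr2:152736251-152737410, plus strand) and Id3 (ENSMUSG00000007872, chr4:136143497-136145755, plus strand) code for helix-loop-helix proteins without a DNA-binding domain that hold back basic helix-loop-helix factors, and their transcription responds directly to BMP-activated Smads. Id1 had 39.0 to 93.2 CPM in AAV-GFP mice with a median of 53.8, and 34.4 to 68.4 CPM in AAV-Notum mice with a median of 46.5. Mouse AAV-GFP-2012 stood apart at 93.2 CPM, the other 5 AAV-GFP mice being at or under 54.9 CPM. The log2 fold change of Id1 was -0.15 with a standard error of 0.22 (edgeR, adjusted p = 0.717, exact permutation p = 0.608), and it was 0.057 without that mouse. Id3 had 44.9 to 76.2 CPM in AAV-GFP mice with a median of 59.1, and 46.5 to 64.3 CPM in AAV-Notum mice with a median of 53.5, so the AAV-Notum range lay inside the AAV-GFP range. Its log2 fold change was -0.13 with a standard error of 0.13 (edgeR, adjusted p = 0.598, exact permutation p = 0.398). An interval of 2 standard errors below these estimates reached -0.59 for Id1 and -0.39 for Id3, so decreases of up to that size lay within the interval. With the lymphoid score as a covariate the log2 fold changes were 0.0086 for Id1 and 0.057 for Id3. With the endothelial score they were 0.23 and 0.031, and without AAV-GFP-2014, AAV-GFP-2011 and AAV-GFP-2012 they were 0.17 and 0.090.

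Across the fits that took account of the lymphoid or endothelial levels, the log2 fold changes of most of the 10 genes moved toward 0. Without the lymphoid-poor mice AAV-GFP-2014 and AAV-GFP-2011, 1 of the 10 genes, Bmp1, was lower at an unadjusted p under 0.05 (log2 fold change -0.38, edgeR unadjusted p = 0.0218), against 4.95% of all genes tested in that fit. Without mouse AAV-GFP-2012 as well, an alternative chosen after seeing the data, 0 of the 10 genes passed an adjusted or an unadjusted p of 0.05 in edgeR, against 4.06% of all genes lower at the unadjusted one. Adjusted for the lymphoid score, 1 of the 10 genes, Bmp1, was lower, against 4.88% of all genes. With the endothelial score as a covariate Bmp1 (-0.22, unadjusted p = 0.0132) and Bmp2 (-0.38, unadjusted p = 0.0332) were lower in edgeR, against 5.07% of all genes. Adjusted for RNA integrity number, the same pair was lower, at -0.37 (unadjusted p = 0.0143) and -0.31 (unadjusted p = 0.0246), against 5.95% of all genes. With the adipocyte score as a covariate, also chosen after seeing the data, Bmp1, Bmp2, Bmp4 and Bmp6 had unadjusted p between 7.71e-04 and 0.0456, and Grem1 was higher (log2 fold change 1.35, unadjusted p = 0.0365), against 9.42% of all genes lower and 10.6% higher.

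**Figure D3:**
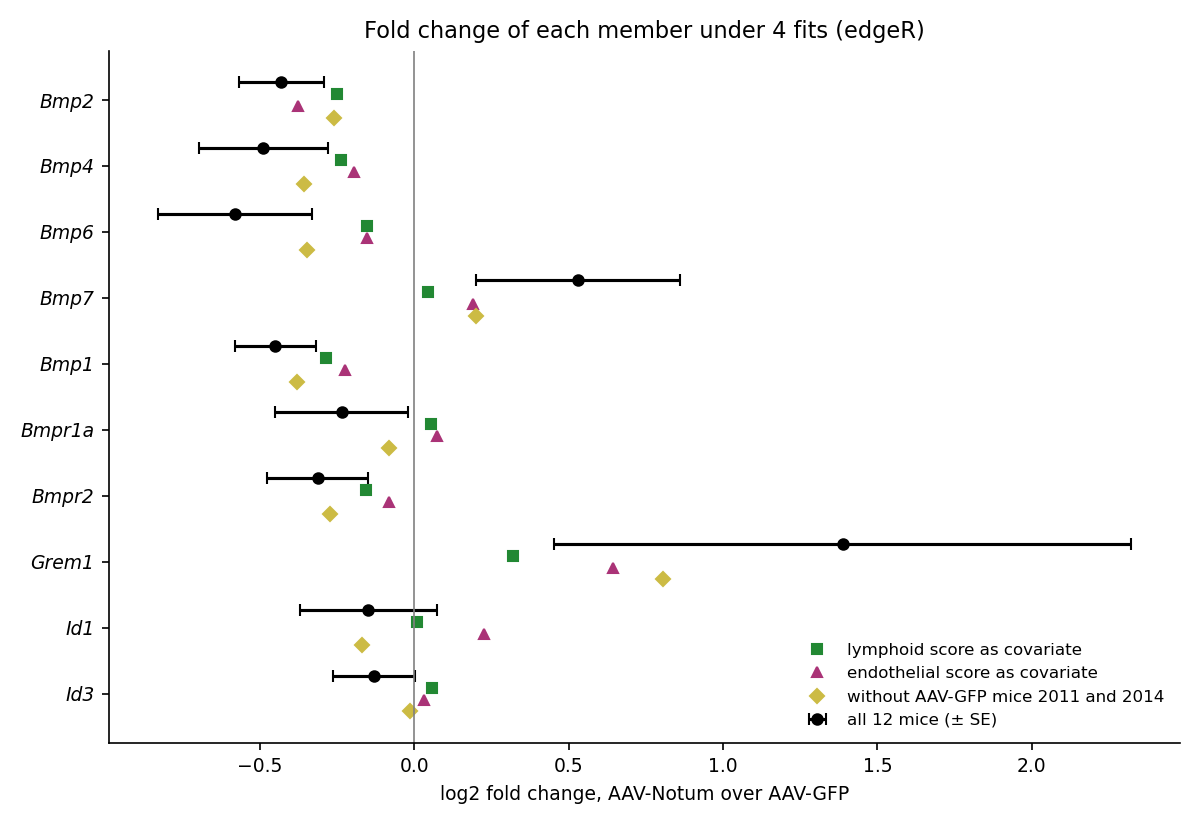
Log2 fold change of AAV-Notum over AAV-GFP for the 10 genes, from edgeR on all 12 mice (black, ± standard error), with the lymphoid score as a covariate (green), with the endothelial score as a covariate (purple) and without AAV-GFP-2014 and AAV-GFP-2011 (yellow). Bmp1, Bmp2, Bmp4 and Bmp6 were below 0 in each of these 4 fits, and Grem1 went from 1.39 to 0.32 with the lymphoid score.

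The levels of several of the 10 genes across mice fell into opposed patterns. They are given as a description over all 12 mice, without removing the group means. The difference between the groups therefore enters them, as do the lymphoid differences and library scaling that the mice share. Grem1 ran with Bmp7 (Pearson's r of log2 CPM 0.88) and against Bmp6 (-0.85), Bmp2 (-0.81) and Bmp1 (-0.79). Bmp4 ran with Bmp1 (0.90) and Bmp6 (0.80), and with Id1 and Id3 at 0.77 and 0.73. Weaker values were those of Id1 with Bmp2 (0.12), Bmp7 (-0.35) and Grem1 (-0.39), and of Id3 with Bmp2 (0.41). Of all genes tested, those closest to Grem1 were Hsh2d, Treml2 and Shisa3, each at 0.99. Those closest to Bmp4 were Gm34280 (0.96), Ccdc174 (0.96) and Prps1 (0.95). Bpgm (0.95), Ccdc69 (0.94) and Abcf3 (0.93) were closest to Id1, and Zfp867 (0.94), Gm45844 (0.93) and Gm46404 (0.91) to Id3.

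None of the other genes of the pathway passed the adjusted threshold in edgeR, and most had a log2 fold change below 0. Lists of ligand, receptor, antagonist, Smad, target and tolloid genes held 57 genes of the count table, of which 41 were tested and 16, with at most 134 reads over all mice, were not. Of the 41 genes, 34 had a log2 fold change below 0, with a median of -0.31. At an unadjusted p under 0.05 in edgeR, 14 (34.15%) were lower and 0 were higher, read against 9.54% and 4.64% of all genes. None of the 41 had an adjusted p under 0.05 in edgeR (smallest 0.124, Acvrl1), against 0.0513% of all genes lower and 0% higher. Groups that did not overlap were found for 0 of the 41, against 0.693% of all genes lower and 0.398% higher. DESeq2 called Acvr1, Acvrl1 and Bmper lower at an adjusted p under 0.05, as it did 2.17% of the genes it adjusted. With the lymphoid score as a covariate 3 of the 41 genes, Acvr1, Acvrl1 and Bmper, were lower at an unadjusted p under 0.05, against 4.88% of all genes.

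Among the other ligand genes, Bmp3, whose product opposes osteogenic BMPs, averaged 39.7 ± 22.4 CPM (SD, n = 6) for AAV-GFP and 18.5 ± 4.78 CPM (SD, n = 6) for AAV-Notum, with a log2 fold change of -1.10 (standard error 0.37, edgeR adjusted p = 0.231). Levels of 64.4, 58.4 and 56.0 CPM were those of AAV-GFP-2011, AAV-GFP-2014 and AAV-GFP-2021, and the other 9 mice lay between 12.1 and 27.0 CPM. For Bmp3 it was -0.56 with the lymphoid score as a covariate (edgeR, unadjusted p = 0.123). Gdf10 stood at 17.4 and 17.0 CPM in the respective groups.

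Of the 8 other receptor and co-receptor genes tested, 5 were lower at an unadjusted p under 0.05, against 9.54% of all genes. Acvrl1, coding for the endothelial type I receptor ALK1, was at 39.9 to 63.7 CPM in AAV-GFP and 34.1 to 42.5 CPM in AAV-Notum mice, and 5 of the AAV-Notum mice were under the lowest AAV-GFP mouse. The log2 fold change of Acvrl1 was -0.49 with a standard error of 0.11 (edgeR unadjusted p = 8.44e-04). Eng, coding for the endothelial co-receptor endoglin, had a log2 fold change of -0.57, and Acvr1, coding for the type I receptor ALK2, one of -0.88 (adjusted p = 0.214 and 0.166). Mouse AAV-GFP-2012 had 222.5 CPM of Eng and the other 11 mice at most 139.4 CPM, and the log2 fold change without it was -0.37. Those of the type II receptor gene Acvr2b and the co-receptor gene Rgmb were -0.54 and -0.29. In the fit with the lymphoid score those of Acvr1, Acvr2b and Rgmb were -0.43, -0.25 and -0.034, and of the 5 genes Acvr1 (unadjusted p = 0.0475) and Acvrl1 (unadjusted p = 0.00728) kept an unadjusted p under 0.05. The median log2 fold change of 10 endothelial genes was -0.34 in the same mice, and 3 of 10 were lower at an unadjusted p under 0.05, again against 9.54% of all genes. With the endothelial score as a covariate the log2 fold change of Acvrl1 was -0.37 (edgeR unadjusted p = 0.00713) and that of Eng -0.25 (unadjusted p = 0.0766).

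Of 13 other antagonist and modulator genes, 5 were lower at an unadjusted p under 0.05, against the same 9.54% of all genes. They were Bmper, coding for a chordin-like extracellular modulator (log2 fold change -0.71, edgeR adjusted p = 0.166), Chrdl1 (-0.63), Nbl1 (-0.43), Fstl1 (-0.32) and the activin-binding Fstl3 (-1.19). Bmper was at 23.3 to 54.6 CPM in AAV-GFP and 18.7 to 31.3 CPM in AAV-Notum mice. These were opposite in sign to the log2 fold change of Grem1. When the lymphoid score was a covariate, the log2 fold changes of Bmper, Chrdl1 and Fstl3 were -0.38, -0.36 and -0.43. Bmper alone of the 5 genes kept an unadjusted p under 0.05 in that fit (0.0318), and the others had unadjusted p between 0.0599 and 0.247. Htra1, a secreted serine protease gene, had a log2 fold change of -0.26 (adjusted p = 0.476).

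Of 8 Smad and Smurf genes, 0 were lower or higher at an unadjusted p under 0.05 in edgeR or an adjusted one, against 9.54% of all genes lower and 4.64% higher at the unadjusted one, and the median log2 fold change was -0.088. Smad5, a receptor-activated Smad of the BMP branch, was at 112.4 ± 16.4 and 106.7 ± 16.7 CPM (SD, n = 6), and Smurf1, a ubiquitin ligase for those Smads, at 104.1 ± 17.9 and 90.6 ± 5.32 CPM (SD, n = 6). Among 6 other target genes, Atoh8 (-0.69) and Zfp423 (-0.57), the latter coding for a preadipocyte factor that amplifies BMP signalling, were lower at an unadjusted p under 0.05 (9.54% of all genes), while Id2 had a log2 fold change of 0.41 (unadjusted p = 0.350). Of the genes grouped with Bmp1, Pcolce, whose product enhances procollagen cleavage by BMP1, had a log2 fold change of -0.54 (standard error 0.17, edgeR unadjusted p = 0.00811, adjusted p = 0.214), with 5 of the AAV-Notum mice under the lowest AAV-GFP mouse. The lymphoid score as a covariate gave log2 fold changes for Atoh8, Zfp423 and Pcolce of -0.40, -0.17 and -0.27 (unadjusted p = 0.0595, 0.389 and 0.0826). The related Pcolce2 had one of -0.33 (unadjusted p = 0.204).

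**Figure D4:**
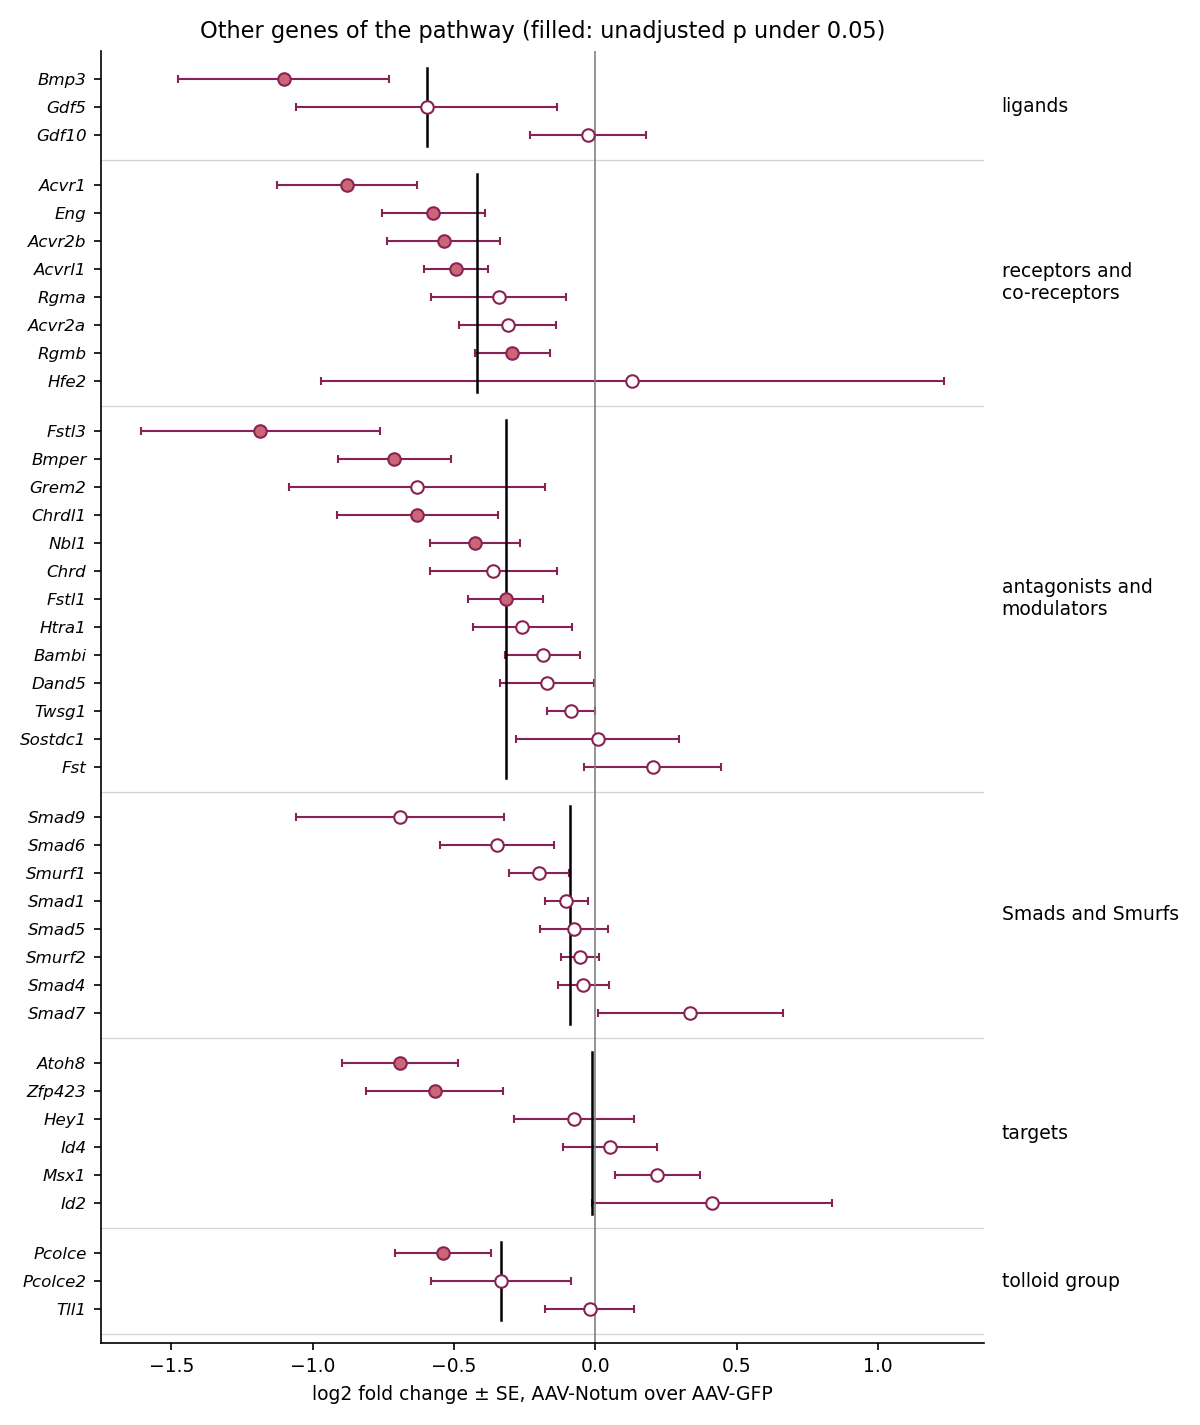
Log2 fold change ± standard error (edgeR, AAV-Notum over AAV-GFP) of 41 other genes of the pathway in 6 lists, with filled points for an unadjusted p under 0.05 and a black line at each list's median. All 14 filled points lie below 0, between -1.19 and -0.29, and the Smad and Smurf list holds no filled point.

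The promoters of Bmp4, a gene known to respond to Wnt signalling, and of Grem1, the gene with the largest coefficient of variation among the 10, are shown as the 250 bases before the RefSeq start on GRCm38.p6, where the annotated start lies at or just beyond the end of the sequence. Promoter sequence was held for 6 of the 10 genes. Capitals mark the motifs found among 5 that were searched on both strands: CTTTGAT (TCF/LEF factors of Wnt signalling), GGCGCC and GTCTAGAC (Smads), CACGTG (E-box) and GGGCGG (Sp1).
Bmp4, chr14:46390670-46390919, minus strand: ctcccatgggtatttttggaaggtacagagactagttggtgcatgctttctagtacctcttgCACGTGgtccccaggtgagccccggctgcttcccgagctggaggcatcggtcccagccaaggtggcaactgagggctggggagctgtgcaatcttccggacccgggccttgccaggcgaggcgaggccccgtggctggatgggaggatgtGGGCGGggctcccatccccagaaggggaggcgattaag
Grem1, chr2:113758649-113758898, minus strand: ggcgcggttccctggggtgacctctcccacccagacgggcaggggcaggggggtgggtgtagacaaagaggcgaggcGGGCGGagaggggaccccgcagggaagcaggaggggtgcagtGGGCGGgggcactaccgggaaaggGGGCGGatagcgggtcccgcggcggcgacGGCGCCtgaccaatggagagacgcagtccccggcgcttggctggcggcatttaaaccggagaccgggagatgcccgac
Counted back from -1 at the base before the start, the Bmp4 promoter held CACGTG at -188 and GGGCGG at -38, and none of the other 3 motifs. The Grem1 promoter held GGCGCC at -78 and GGGCGG at -173, -131 and -107, and none of the other 3 motifs. Of 32851 promoters of this length, 3.21% held CTTTGAT, 9.59% GGCGCC, 0.167% GTCTAGAC, 6.02% CACGTG and 32.7% GGGCGG. The GC content was 63.2% for Bmp4 and 72% for Grem1, against a median of 52.4%. These are matches of letters and no measure of binding.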

How the data were processed

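Each library held iWAT RNA of 1 mouse (6 AAV-GFP, 6 AAV-Notum), and each mouse was 1 replicate. The authors made TruSeq libraries, sequenced 50-base single-end reads on a HiSeq4000 and mapped them to mm10 with STAR 2.3.1 after FastQC, and named DESeq2 for testing. The values tested are deposited counts, the reads per gene without normalization. A second deposited table holds log2 values, for which the authors scaled the reads by 1 size factor for each mouse and added 1 before taking logs. Reversing this returned whole numbers, within 0.02, for 100% of the entries between 1 and 1000 reads, with totals for the 10 genes -4.47% to 2.49% apart from the first table. The counting program, its annotation and its use of strand are not given in the sources used here.

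Testing used edgeR 4.0.16 under R 4.3.3 (filterByExpr with minimum count 10 and total 15, TMM, estimateDisp, glmQLFit, two-sided test, Benjamini-Hochberg over 15585 genes, threshold 0.05). CPM use the TMM library size, and log2 CPM a prior count of 2. Exact permutation tests covered all 924 assignments (smallest possible p = 0.00217). All rows named a gene, and genes under these minimums were not tested. Marker scores are means of log2 CPM. Alternatives used DESeq2 1.42.0, limma 3.58.1, other scalings and filters, covariates, both tables and each mouse left out in turn. The fits were also run on simulated counts with planted changes. Those counts held no variation shared between genes, such as the lymphoid differences, so they do not cover it. Positions are from GENCODE vM21, promoters from RefSeq (250 bases).

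The 10 genes, the lists and the tests were chosen with earlier results of these data known. Genes named are all 10 members, and of each pathway list the 2 most abundant and each gene with an unadjusted p under 0.05. The 3 genes most like Bmp4, Grem1, Id1 and Id3 were taken by Pearson correlation. Python 3.11.15 and matplotlib 3.10.9 drew the plots, and the permutation tests were run with scipy 1.17.1.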

Additional observations from a re-analysis of the deposited data

Results flagged for a closer look

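Of 42 groups of 6 values examined, 20 of them levels of the 10 genes, in 4 the distance from an extreme mouse to the next value, as a share of the range of the 6, was above the critical value of 0.625. Chance gives about 1 in 20 such groups. Id1 in AAV-GFP mice was one, with a ratio of 0.706: mouse AAV-GFP-2012 was at 93.2 CPM and the other 5 mice at 39.0 to 54.9 CPM. The other 3 were marker scores in mean log2 CPM. The mesothelial score of the same mouse was 1.16 against 0.410 to 0.649 (ratio 0.682), the macrophage score of mouse AAV-GFP-2014 was 5.12 against 5.94 to 6.22 (ratio 0.747), and the lymph node stroma score of mouse AAV-Notum-2042 was 2.05 against 2.96 to 3.29 (ratio 0.733). RNA of mouse AAV-GFP-2012 was isolated later than that of the others, and the part of this in its Id1 level was not tested.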

How the results depend on the processing

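No paired analysis was possible because the groups share no replicate numbers. Of the 10 genes, the number lower at an adjusted p under 0.05 was 0 in edgeR (0.0513% of all genes). It was 1, Bmp1, with DESeq2 (2.17% of the genes it adjusted). Without independent filtering the DESeq2 adjusted p of Bmp1 was 0.0919. The number lower at an unadjusted p under 0.05 was 4, against 9.54% of all genes, a share that was 4.06% to 5.95% in the fits named next. It was 2 with the RNA integrity number or the endothelial score as a covariate, 1 with the lymphoid score as a covariate or without AAV-GFP-2014 and AAV-GFP-2011, and 0 without AAV-GFP-2012 as well. Leaving out 1 mouse gave 2 to 6. It was 2 without AAV-GFP-2011, AAV-GFP-2012, AAV-GFP-2014, AAV-Notum-2031, AAV-Notum-2032 or AAV-Notum-2034, where 6.67% to 7.11% of all genes were lower, and 6 without AAV-Notum-2042, where 13.4% were. The number higher was 0, and 1 (Grem1) with limma-voom (9.38% of all genes), with the authors' normalized values in limma (7.38%) and with the adipocyte score as a covariate (10.6%). The number lower without overlap was 0 to 1 with 1 mouse left out, Bmp1 without AAV-GFP-2022 (1.52% of all genes) and Bmp2 without AAV-Notum-2041 (0.793%).

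For the 41 other genes of the pathway, the number lower at an adjusted p under 0.05 was 0 in edgeR (0.0513% of all genes), 3 with DESeq2 (2.17%), and 1 each with DESeq2 without independent filtering (0.737%) and with the adipocyte score as a covariate (1.08%). The number lower at an unadjusted p was 14. It was 8 with the RNA integrity number or without AAV-GFP-2014 and AAV-GFP-2011, 3 with the lymphoid or the endothelial score, 1 without AAV-GFP-2012 as well (against the shares of all genes given above), and 9 to 17 with 1 mouse left out, with 9 without AAV-GFP-2012 (7.11% of all genes) and 17 without AAV-GFP-2022 (13.6%). With the adipocyte score as a covariate, 9.42% of all genes were lower at the unadjusted p. Of the ligand and receptor genes lower in the main fit, Bmp3, Acvr1, Acvrl1, Acvr2b and Eng kept an unadjusted p under 0.05 there (edgeR, 0.0014 to 0.047). Rgmb did not (unadjusted p = 0.0635). The number higher was 0, and 1 with the endothelial (6.25% of all genes) or the adipocyte score (10.6%).

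With the lymphoid score, the endothelial score and without the 3 AAV-GFP mice of lowest lymphoid score, in that order, these log2 fold changes reversed: Bmpr1a to 0.056, 0.075 and 0.027, Id1 to 0.0086, 0.23 and 0.17, Id3 to 0.057, 0.031 and 0.090, Rgma to 0.14, 0.085 and 0.17, Smad5 to 0.0052, 0.086 and 0.047, and Id2 to -0.18, -0.073 and -0.25. Htra1 reversed to 0.0099 with the lymphoid score and 7.34e-04 without the 3 mice, where Smurf1 reversed to 0.031. Gdf10 reversed to 0.15 with the endothelial score, 0.031 without the 3 mice, 0.043 with the adipocyte score and 0.011 with the authors' normalized values, and ran from -0.14 to 0.10 with 1 mouse left out. Id1 reversed without AAV-GFP-2012, to 0.057. With 1 mouse left out, the difference of mean log2 CPM ran from -0.56 to -0.36 for Bmp4, from -0.70 to -0.46 for Bmp6, from -0.45 to -0.26 for Bmpr2, from 1.98 to 3.22 for Grem1, from -0.22 to 0.032 for Id1, from -0.20 to -0.048 for Id3, from 0.32 to 0.68 for Bmp7 and from -0.40 to -0.16 for Bmpr1a. For Id2 the log2 fold change ran from 0.23 without AAV-GFP-2014 to 0.72 without AAV-GFP-2013 and was 0.70 with limma-voom, that of Pcolce2 from -0.46 without AAV-Notum-2042 to -0.15 without AAV-GFP-2012, and that of Htra1 from -0.35 without AAV-GFP-2013 to -0.15 without AAV-GFP-2011. The cause of these shifts was not tested.

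Few reads limit Bmp7, Bmp4 and Grem1, with 10 to 67, 30 to 75 and 0 to 282 reads per mouse. The alternatives without the 3 mice and with the adipocyte score were chosen after seeing the data.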
